A study of Homo sapiens with 36 samples.

Results

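Cal27, an established line of human tongue squamous cell carcinoma, was transfected with a plasmid carrying ACLY or with the vector, and gene counts were read from 3 libraries of each, 6 of the 36 libraries of the series. All cells grew in serum depleted of exosomes and no IL-8 was added to these libraries. Neither the time after transfection nor any selection of transfected cells was given in the sources used here. The same plasmids went into HN4 and HN6, also lines of head and neck squamous cell carcinoma, with 3 libraries a group. The study's stated question was what lies downstream of ACLY. Replicates are numbered in the labels with no word on whether each was its own culture, and a p-value here measures only library-to-library spread, part or all of which may be technical. The 6 Cal27 libraries held 17561618 to 20232735 counts, and the 36 libraries held 16570601 to 20232735. Levels are CPM, counts scaled to a fixed library total, as mean ± SD with n = 3. The limit a count of 0 leaves is 0.148 to 0.181 CPM (3 counts of the total, counting error only).

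ACLY, ATP-citrate lyase, splits cytosolic citrate into acetyl-CoA and oxaloacetate. Its acetyl-CoA feeds the building of fatty acids and cholesterol and the acetylation of histones and other proteins, and the SREBP transcription factors control ACLY together with many lipid synthesis genes. Tumour cells often make fatty acids from glucose through this route even when lipids are supplied.

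The plasmid libraries of Cal27 also held transcripts that were otherwise read in HN4 alone. Each change was therefore set against 3 groups: Cal27 with vector, HN4 labelled vector and HN4 labelled ACLY. Any weighted mean of libraries from these groups lies between their lowest and highest levels, so a Cal27 ACLY level above all 3 or below all 3, here called above or below the range, cannot be such a mean. A gene was called outside the range where all 3 differences had 1 sign and the largest of their 3 p-values passed an adjusted 0.05 (edgeR quasi-likelihood test, Benjamini-Hochberg over 18556 genes). The range covers the HN4 and Cal27 libraries read here, and cells in a state that was not read could lie outside it. In bulk RNA, fewer cells of a type and less RNA per cell cannot be told apart.

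ACLY (chromosome 17, 41866908 to 41930542, minus strand, hg38) was read at 1902, 1882 and 1852 CPM in the Cal27 ACLY libraries and at 247, 230 and 255 CPM in the vector libraries. The 3 ACLY libraries lay above all others of both lines. The difference was 3.03 on the log2 scale (SE 0.0545, edgeR adjusted p = 3.13e-31). Reads of the plasmid and of the cell's own ACLY gene cannot be told apart in gene counts. In HN6 the plasmid gave a near-equal difference of 3.05, and the Cal27 response minus the HN6 response was -0.01 (SE 0.0718, adjusted p = 0.898), a p that does not show the responses to be alike.

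In HN4 the ACLY level went against the labels: the libraries labelled vector held 1493, 1488 and 1478 CPM, and those labelled ACLY 364, 371 and 326 CPM. Both HN4 groups were therefore used as limits of the range. Cal27 ACLY stood 0.34 on the log2 scale above the higher of them (adjusted p = 8.41e-06), so its ACLY level was above the range. The 3 libraries held a mean of 1879 CPM. A mixture at the HN4 share given below would hold 598 CPM with HN4 taken as the mean of its groups (observed 3.14-fold as much), 894 CPM from HN4 labelled vector alone (2.1-fold) and 301 CPM from HN4 labelled ACLY alone (6.24-fold).

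**Figure D1:**
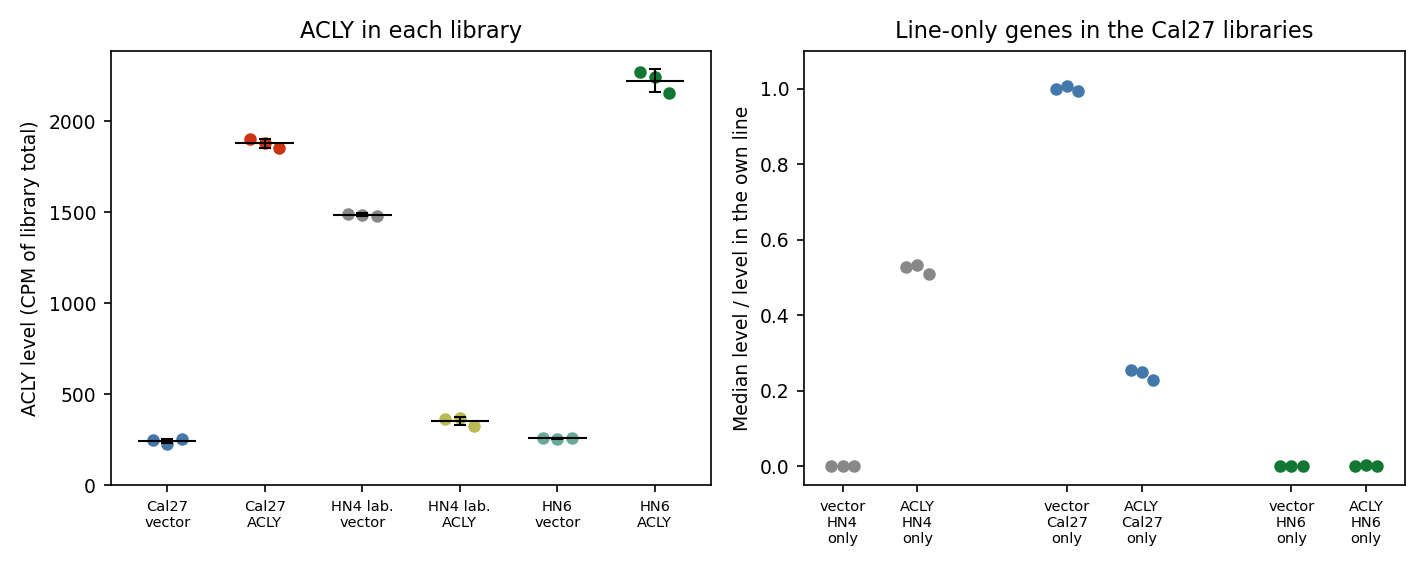
Left, ACLY level in CPM in each library of 6 groups, with the mean (line) and SD (bar). Right, the median over 18 HN4-only, 13 Cal27-only and 10 HN6-only genes of the level in each Cal27 library divided by the level in the genes' own line. Cal27 ACLY holds the HN4-only genes at 0.51 to 0.53 of the HN4 level, while Cal27 vector holds them near 0.

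HN4-only genes were 18 genes of at least 20 CPM in untreated HN4 and at most 0.5 CPM in untreated HN6 and untreated Cal27, libraries that do not enter this comparison. Their median share of the HN4 level was 0.523 ± 0.0117 (SD, n = 3) in Cal27 ACLY and 0.000549 ± 0.000501 in Cal27 vector. By the same rule 13 Cal27-only genes stood at 0.244 ± 0.0134 of the Cal27 vector level, and 10 HN6-only genes at 0.00149 ± 0.00142 of the HN6 level. The HN4 and Cal27 shares do not add up to 1, as those of a plain mixture would. Of 11448 genes with a mean of at least 5 CPM, 90.7% lay within 1.5-fold of the level expected at the HN4 share, against 80.3% within 1.5-fold of the HN4 mean and 68.1% within 1.5-fold of Cal27 vector. These shares are a description and have no test.

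Against vector alone, 11734 of 18556 genes (63.2%) passed in Cal27 ACLY, 6353 higher (34.2%) and 5381 lower (29%). With upper-quartile scaling, which moved the median of all genes from 0.03 to -0.11, the split was 4995 higher and 6861 lower. With a length and GC trend taken out, the split was 4786 higher and 7318 lower. Of the 11734, 8371 (71.3%) had a mean inside the range, 782 passed the range test, and 2581 had a mean outside but missed that test. A mean inside was about as common among all genes. Of all 18556, 486 passed above and 307 below, and 2310 and 2635 more had means above and below but missed the test. Of 4264 genes changed at least 2-fold, 3554 had a mean inside and 86 (2.02%) passed the range test. The genes with the largest rises inside the range included the cancer-testis antigens MAGEA12, MAGEA10 and MAGEA1. MAGEA12 went from 0 counts in all 3 vector libraries to 38.7 ± 1.56 CPM, beside 62.3 and 46.4 CPM in the HN4 groups. CXCL5, a neutrophil-attracting chemokine, went from 0 to 19.7 ± 1.81 CPM, beside 62.4 and 61.2 CPM. MDM2, which marks p53 for degradation and is itself a p53 target, went from 42.7 ± 0.68 to 177 ± 7.63 CPM, beside 323 and 370 CPM. The largest falls inside the range were of VTCN1, TENM1, POTEF, PPFIA4 and PLEKHS1. POTEF went from 10.9 ± 2.3 to 0.533 ± 0.172 CPM, beside 0.383 and 0.269 CPM in HN4. PPFIA4 went from 19.7 ± 0.674 to 1.19 ± 0.258 CPM, beside 1.07 and 3.01 CPM. At the HN4 share 5.36 and 10.5 CPM would be expected, while MAGEA10 held 30.1 CPM beside an expected 29.7 CPM. MAGEA genes have near-identical copies, so their counts are uncertain.

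Outside the range stood 793 genes (4.27% of those tested), 486 above (2.62%) and 307 below (1.65%). With the length and GC trend taken out the split turned to 302 above and 409 below, of which 249 and 242 were also called without that step. All 486 above and 301 of the 307 below had no overlap between the 3 plasmid libraries and the 9 others, beside 5.97% of all genes with no overlap above and 4.37% below. The steps beyond the nearest group were small, with a median of 1.25-fold above and 1.27-fold below. At least 1.5-fold beyond were 59 genes above and 34 below, and at least 2-fold beyond were 19 and 3. All 486 genes called above and all 307 called below also had means beyond untreated HN4, HN4 with IL-8 and untreated Cal27, 3 groups the test did not use. These are the same lines at similar ACLY levels, 380, 1323 and 244 CPM. HN4 labelled ACLY, HN4 labelled vector and Cal27 vector held 354, 1486 and 244 CPM. The count is therefore a description and no separate test. Of genes with a mean outside that missed the test, 1866 of 2310 (80.8%) above and 2047 of 2635 (77.7%) below also had means beyond those 3 groups. With those 3 groups in the test as well, so that 6 groups were the limits, 284 genes were called, 192 above and 92 below, and without Cal27 ACLY replicate 2 there were 514.

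**Figure D2:**
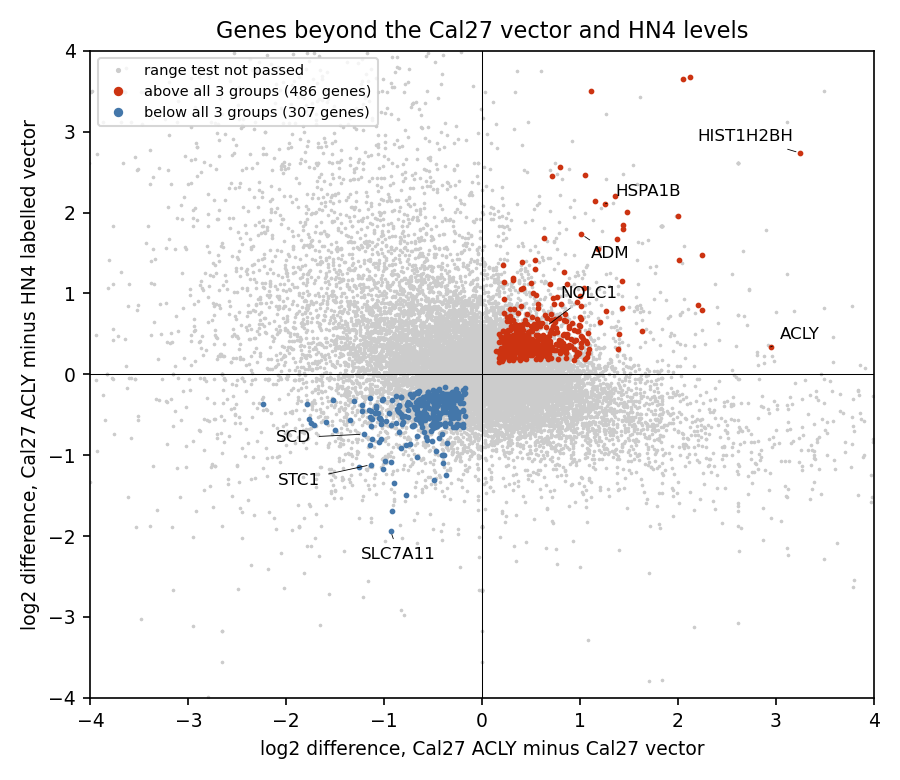
Each point is 1 of 18556 genes, by the log2 difference of Cal27 ACLY from Cal27 vector (x) and from HN4 labelled vector (y), on library totals. The 486 genes above all 3 groups lie in the upper right and the 307 below all 3 in the lower left. Beyond the axes at 4 log2 units lie 984 genes, 2 of them called.

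Heat shock genes were mostly higher with the plasmid. Of 23 heat shock and chaperone genes tested, 19 were higher than vector and 1 was lower. Above the range were 8 (34.8%, beside 2.62% of all genes, and 7 to 15 over 23 other settings) and 0 were below. The share of all genes also moved over these settings. It was 192 genes above with 6 groups as limits and 1213 with HN4 labelled ACLY and Cal27 vector as the only limits. The ranges given for lists thus do not stand on a fixed 2.62%. The median difference from vector was 0.56 on the log2 scale, against 0.03 over all genes. The 8 were HSPA1A and HSPA1B, the stress-induced forms of the chaperone Hsp70, DNAJA1 and DNAJB1, which hand client proteins to Hsp70, HSP90AB1, an Hsp90, and AHSA1, FKBP4 and CHORDC1, which work with Hsp90.

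HSPA1B held 172, 189 and 174 CPM in the Cal27 ACLY libraries. It held 72.6, 71.4 and 79.6 CPM with vector, 42.8, 41.1 and 40.1 CPM in HN4 labelled vector, and 20.5, 19.5 and 17.1 CPM in HN4 labelled ACLY. Every Cal27 ACLY library was above all 9 others, and the step above the nearest group was 1.26 on the log2 scale (adjusted p = 8.47e-15). HSPA1A held 298, 294 and 280 CPM with the plasmid and 139, 126 and 156 CPM with vector, with 49.4 to 56.4 and 15.9 to 23.3 CPM in the HN4 groups (step 1.05, adjusted p = 5.42e-08). HSPA1A and HSPA1B are near-identical copies, so the split of reads between them is uncertain, and both moved in the same direction. CHORDC1 held 239, 236 and 246 CPM against 139, 150 and 135 CPM with vector, and at most 126 CPM in HN4 (step 0.77, adjusted p = 5.76e-11). AHSA1, which speeds the ATPase of Hsp90, held 242 CPM on average against 147 CPM with vector, and 161 and 102 CPM in HN4 (step 0.59). Not all members followed. HSPH1, an Hsp70 partner, rose by 1.35 against vector but stayed inside the range at 490 CPM, beside 530 CPM in HN4 labelled vector, and so did HSF1, the heat shock transcription factor, at 101.3 CPM beside 123 and 135 CPM in HN4.

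Promoters of these genes were read for the heat shock element, the site of HSF1, as 2 facing units GAANNTTC, which reads the same on both strands. The window was 250 bases before to 50 after the start in RefSeq (GRCh38.p14). The 2-unit form was in 4 of 7 promoters of the members above the range that have an entry, in 4 of 14 of the other members, and in 6.87% of all 27305 promoters. The 3-unit form was in 2 of the 7 (CHORDC1 and DNAJA1), in 2 of the 14 and in 0.487% of all promoters. HSPA1A and HSPA1B matched the 2-unit form only. Matches marked below are of the 2-unit form. These promoters are shown for where the matches lie, with matches in capitals: HSPA1B (chr6:31827488-31827787, plus strand), with 1 match starting 105 bases before the start, CHORDC1 (chr11:90223000-90223299, minus strand), with 3 matches, and DNAJA1 (chr9:33025023-33025322, plus strand), with 2. A match is a description of the letters and not a bound site.
HSPA1B: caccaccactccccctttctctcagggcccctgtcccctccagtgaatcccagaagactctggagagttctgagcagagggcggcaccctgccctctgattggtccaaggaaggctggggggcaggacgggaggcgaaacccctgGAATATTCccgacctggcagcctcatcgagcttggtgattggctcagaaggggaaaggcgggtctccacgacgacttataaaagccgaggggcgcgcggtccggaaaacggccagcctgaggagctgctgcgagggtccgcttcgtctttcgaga
CHORDC1: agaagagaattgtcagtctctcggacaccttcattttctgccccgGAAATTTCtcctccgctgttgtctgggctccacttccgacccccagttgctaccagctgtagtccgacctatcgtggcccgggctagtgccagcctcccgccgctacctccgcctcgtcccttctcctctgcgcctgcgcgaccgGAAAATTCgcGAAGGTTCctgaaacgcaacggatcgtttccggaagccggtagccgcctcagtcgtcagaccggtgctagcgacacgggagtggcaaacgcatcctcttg
DNAJA1: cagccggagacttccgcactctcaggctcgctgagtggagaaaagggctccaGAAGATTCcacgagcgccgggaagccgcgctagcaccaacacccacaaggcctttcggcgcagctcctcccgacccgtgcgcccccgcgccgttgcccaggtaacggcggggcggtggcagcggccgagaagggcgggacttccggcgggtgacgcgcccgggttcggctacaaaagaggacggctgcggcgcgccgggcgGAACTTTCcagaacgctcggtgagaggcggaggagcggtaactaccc

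Genes of ribosome assembly in the nucleolus had more members above the range than any other list counted. This list and those of spliceosomal, CCT, TOMM and TIMM, mitochondrial ribosomal, small nucleolar RNA host, proteasome and replication-type histone genes were drawn from gene names after values had been seen, so their counts only describe them. Of 65 nucleolar factors tested, 57 were higher than vector and 2 lower (NOL3 and UTP14C). Above the range were 34 (52.3%, beside 2.62% of all genes, and 19 to 49 over the other settings) and 0 were below. The 34 included NCL and NPM1, abundant nucleolar proteins, FBL, the methyltransferase of ribosomal RNA, DKC1, the pseudouridine synthase, TCOF1, PES1 and NOLC1. NOLC1, a scaffold between the nucleolus and its small RNA particles, held 451, 439 and 446 CPM with the plasmid and 281, 288 and 282 CPM with vector. It held 293 to 301 CPM in HN4 labelled vector and 229 to 244 CPM in HN4 labelled ACLY. The 3 libraries with the plasmid did not overlap the other 9, and the step was 0.59 on the log2 scale (adjusted p = 4.75e-11). WDR74, which helps to mature the large ribosomal subunit, held 61.0, 55.3 and 55.4 CPM against 34.8, 31.0 and 37.8 CPM with vector and 33.1 to 38.7 CPM over the 6 HN4 libraries. MYC, which drives many of these genes, was at 154 CPM against 191 CPM with vector, and its range test gave an adjusted p of 1. Cytosolic ribosomal proteins moved less: of 49, 27 were higher and 1 lower than vector. Above the range were 2 (RPLP2 and RPS16, 4.08%, beside 2.62% of all genes, and 0 to 4 over the other settings).

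The E-box CACGTG, a site read by MYC and related factors and identical on both strands, was in 14 of 29 promoters of the nucleolar factors above the range. It was in 7 of 26 of the other factors tested and in 7.43% of all promoters. The promoters with an E-box of the 2 furthest above the range among those 14 are shown with the match in capitals: WDR46 (chr6:33289190-33289489, minus strand) and RRP9 (chr3:51941855-51942154, minus strand), both factors of small subunit assembly. WDR46 was at a mean of 87.8 CPM against 57.4 CPM with vector and 63.2 CPM in the higher HN4 group, and RRP9 at 65.8 CPM against 32.2 and 48.5 CPM.
WDR46: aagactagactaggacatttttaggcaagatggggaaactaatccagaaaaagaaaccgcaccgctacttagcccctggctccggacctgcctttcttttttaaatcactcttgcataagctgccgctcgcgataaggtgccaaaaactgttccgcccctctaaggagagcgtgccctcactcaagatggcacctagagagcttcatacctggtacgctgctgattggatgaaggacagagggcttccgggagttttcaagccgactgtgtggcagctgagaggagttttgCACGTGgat
RRP9: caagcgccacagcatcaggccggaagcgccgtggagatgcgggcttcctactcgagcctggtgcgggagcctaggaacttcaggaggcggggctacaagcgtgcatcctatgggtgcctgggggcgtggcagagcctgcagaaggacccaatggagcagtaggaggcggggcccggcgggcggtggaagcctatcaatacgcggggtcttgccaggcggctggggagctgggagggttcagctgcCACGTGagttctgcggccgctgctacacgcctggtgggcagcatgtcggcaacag

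Other lists of RNA and protein handling had more members above the range than below it, to differing degrees. Above it were 33.3% of spliceosomal, 50% of CCT, 20.8% of TOMM and TIMM and 16.7% of mitochondrial ribosomal genes. Of small nucleolar RNA host genes 22.7% were above, and of proteasome genes 5.26%. The share was 2.62% of all genes and 3.3% of protein-coding genes. Against vector, 34.2% of all genes were higher and 29% lower. Of 27 spliceosomal SNRP and LSM genes, 21 were higher and 2 lower than vector, and 9 were above (3 to 14 over the other settings) and 1 below the range. SNRPA1, a protein of the U2 particle, held 87.0, 88.9 and 83.6 CPM against 45.3, 46.8 and 45.0 CPM with vector and 40.9 to 56.9 CPM over the HN4 libraries (step 0.63, adjusted p = 7.43e-09). All 8 subunits of the chaperonin CCT, which folds actin and tubulin, were tested, and 7 were higher and 4 above the range (2 to 6). Of 24 TOMM and TIMM genes of protein import into mitochondria, 22 were higher and 5 above (4 to 11). TOMM40, the import channel, held 309, 315 and 311 CPM against 162, 140 and 168 CPM with vector. HN4 labelled vector held 201 to 211 CPM and HN4 labelled ACLY 122 to 130 CPM, so no library of the other groups reached those with the plasmid (step 0.61, adjusted p = 2.36e-09). Of 78 mitochondrial ribosomal proteins 56 were higher, 3 lower and 13 above the range, a count that ran from 3 to 24 over the other settings and was 3 both with the length and GC trend taken out and with 6 groups as limits. Of 22 host genes of small nucleolar RNAs 16 were higher, 1 lower and 5 above (3 to 6). Of 38 proteasome subunits, 26 were higher, 2 lower and 2 above (0 to 8), a share near that of all protein-coding genes.

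**Figure D3:**
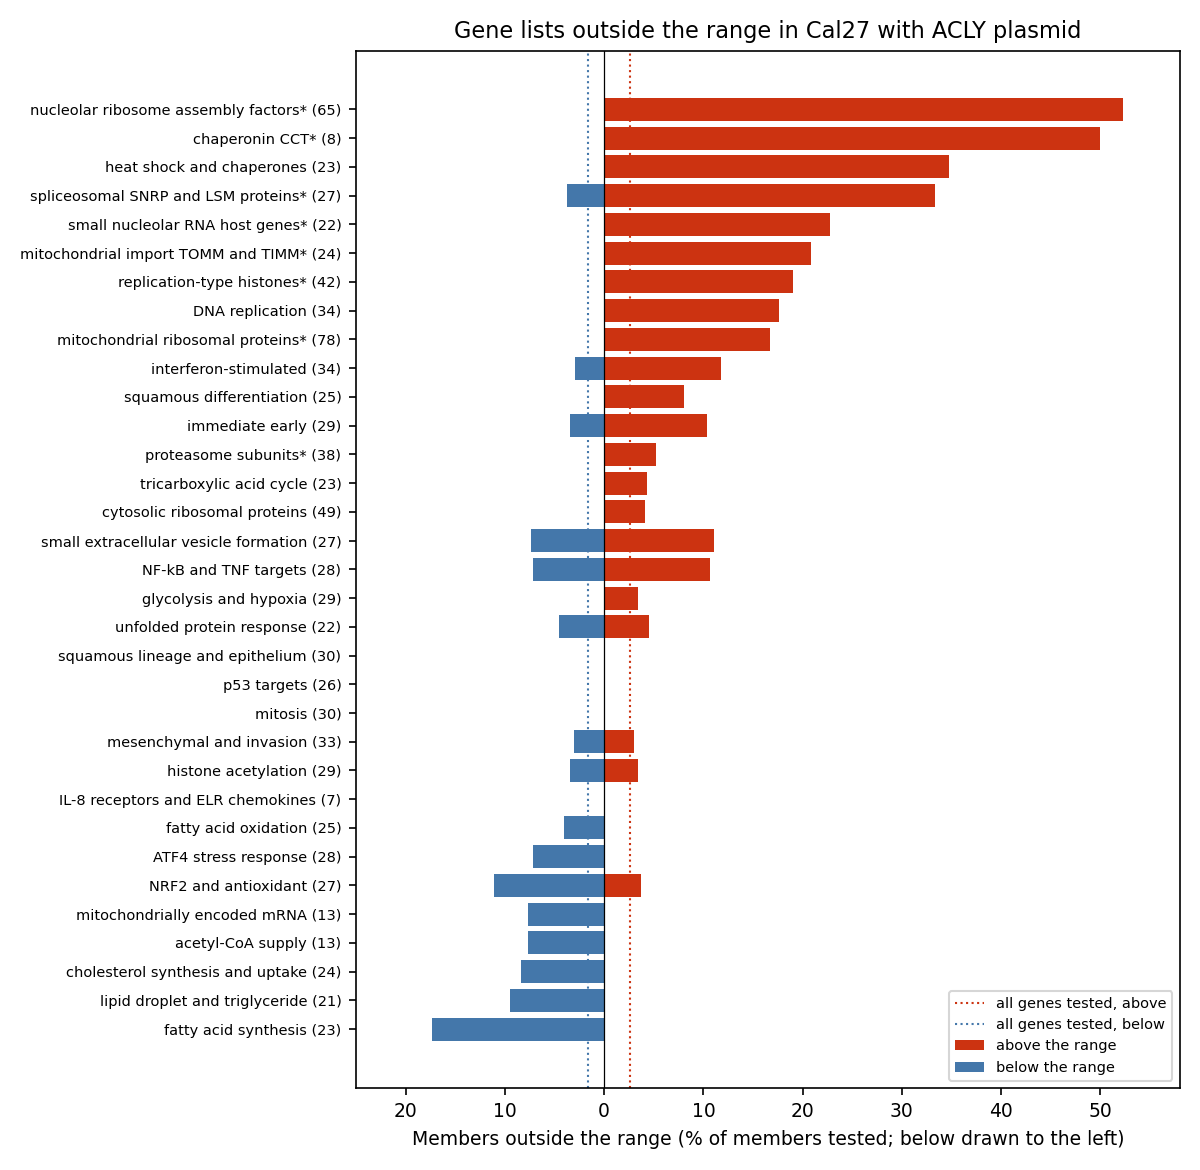
For each gene list with at least 7 members tested (number in brackets), the percent of members above the range (right) and below it (left) in Cal27 ACLY. Dotted lines give all genes tested, 2.62% above and 1.65% below, and an asterisk marks lists drawn after values had been seen. Nucleolar factors reach 52.3% above, and fatty acid synthesis 17.4% below.

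Replication-type histones, whose mRNA normally lacks a poly-A tail and is read in part in poly-A libraries, were higher for 24 of 42 genes and lower for 0. Above the range were 8 (19%, beside 2.62% of all genes, and 4 to 9 over the other settings). HIST1H2BH, an H2B gene, was the furthest of all 486: 11.95, 14.0 and 15.7 CPM with the plasmid against 1.48, 1.68 and 1.21 CPM with vector and 1.098 to 2.885 CPM over the HN4 libraries (step 2.74, adjusted p = 3.36e-11). HIST2H2BE held 13.6 ± 0.604 CPM against 2.85 ± 0.627 CPM, and 4.86 and 4.65 CPM in HN4. Histone genes are a family of similar copies, and how reads that match several copies were counted was not given. Of 34 DNA replication genes 25 were higher and 3 lower, and 6 were above the range (17.6%, and 3 to 14 over the other settings). These were MCM3, MCM4 and MCM5 of the replicative helicase, CDC45 and CDC6, which load or activate it, and ORC6 of the origin complex. MCM3 was at 255 CPM against 176 CPM with vector, and 202 and 150 CPM in HN4 (step 0.33, adjusted p = 0.000141). Of 30 mitosis genes 11 were higher and 6 lower than vector, and 0 were outside the range by edgeR (1 at an unadjusted 0.05, and 0 to 5 above over 23 other settings).

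Lipid synthesis genes, the nearest to the work of ACLY, were found outside the range below it and not above it in the main fit. Over the other settings, up to 1 gene of fatty acid synthesis and up to 3 of cholesterol synthesis and uptake were above it. Of 23 genes of fatty acid synthesis 9 were higher and 7 lower than vector, and 4 were below the range (17.4%, beside 1.65% of all genes; 2 to 5 over the other settings): SCD, ACACA, SREBF1 and ACSL1. The list's median against vector was 0.06 with TMM scaling and -0.03 on library totals. SCD, the desaturase that makes oleate, held 780, 761 and 787 CPM with the plasmid. It held 1820, 1806 and 1749 CPM with vector, 1304, 1269 and 1317 CPM in HN4 labelled vector, and 1391, 1418 and 1313 CPM in HN4 labelled ACLY. All 3 plasmid libraries were below all 9 others, with a step of -0.74 on the log2 scale (adjusted p = 2.58e-13). ACACA, the acetyl-CoA carboxylase that uses the product of ACLY, held 229, 226 and 225 CPM against 294, 275 and 283 CPM with vector and 320 to 354 CPM over the HN4 libraries (step -0.33, adjusted p = 1.07e-05). FASN, the synthase after it, was higher than vector at 821 CPM against 759 CPM and stayed inside the range, with 1134 and 937 CPM in HN4.

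Regulators of these genes, SREBF1 and SREBF2, were also below the range. SREBF1, which encodes the main SREBP of fatty acid synthesis, held 117, 119 and 120 CPM against 267, 260 and 259 CPM with vector and 138 to 160 CPM over the HN4 libraries (step -0.30, adjusted p = 0.0015). SREBF2, the SREBP of cholesterol synthesis, was at 273 CPM against 447 CPM with vector, and 328 and 341 CPM in HN4 (step -0.27, adjusted p = 0.000238). The calls of SREBF1, SREBF2, ACSL1, STARD4, LPIN1, LPIN2 and PPARA were lost when the 3 other groups joined the range, and those of ACSL1 and STARD4 also without Cal27 ACLY replicate 1. Of 24 genes of cholesterol synthesis and uptake 15 were higher and 8 lower than vector, and SREBF2 and STARD4, a cholesterol carrier, were below the range (8.33%, beside 1.65% of all genes). That list's median against vector was 0.44 on the log2 scale, against 0.03 over all genes. ACSS2, which makes acetyl-CoA from acetate, was at 71.8 CPM against 95.3 CPM with vector and 87.5 and 104 CPM in HN4 (step -0.29, adjusted p = 0.00063), 1 of 13 acetyl-CoA supply genes (a list without ACLY) and the only one outside the range. LPIN1 and LPIN2, which make the precursor of triglycerides, and PPARA, a regulator of fatty acid oxidation, were below the range too. They were 9.52% of 21 lipid droplet and triglyceride genes, of which 11 were higher and 6 lower than vector, and 4% of 25 fatty acid oxidation genes, of which 11 were higher and 4 lower. Of 29 writers and erasers of histone acetylation, 8 were higher and 9 lower. The acetyltransferase KAT2A was above the range (119 CPM against 77.6 CPM with vector, and 87.4 and 69.9 CPM in HN4) and KAT6B was below it. These were 3.45% above and 3.45% below, near the 2.62% and 1.65% of all genes.

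**Figure D4:**
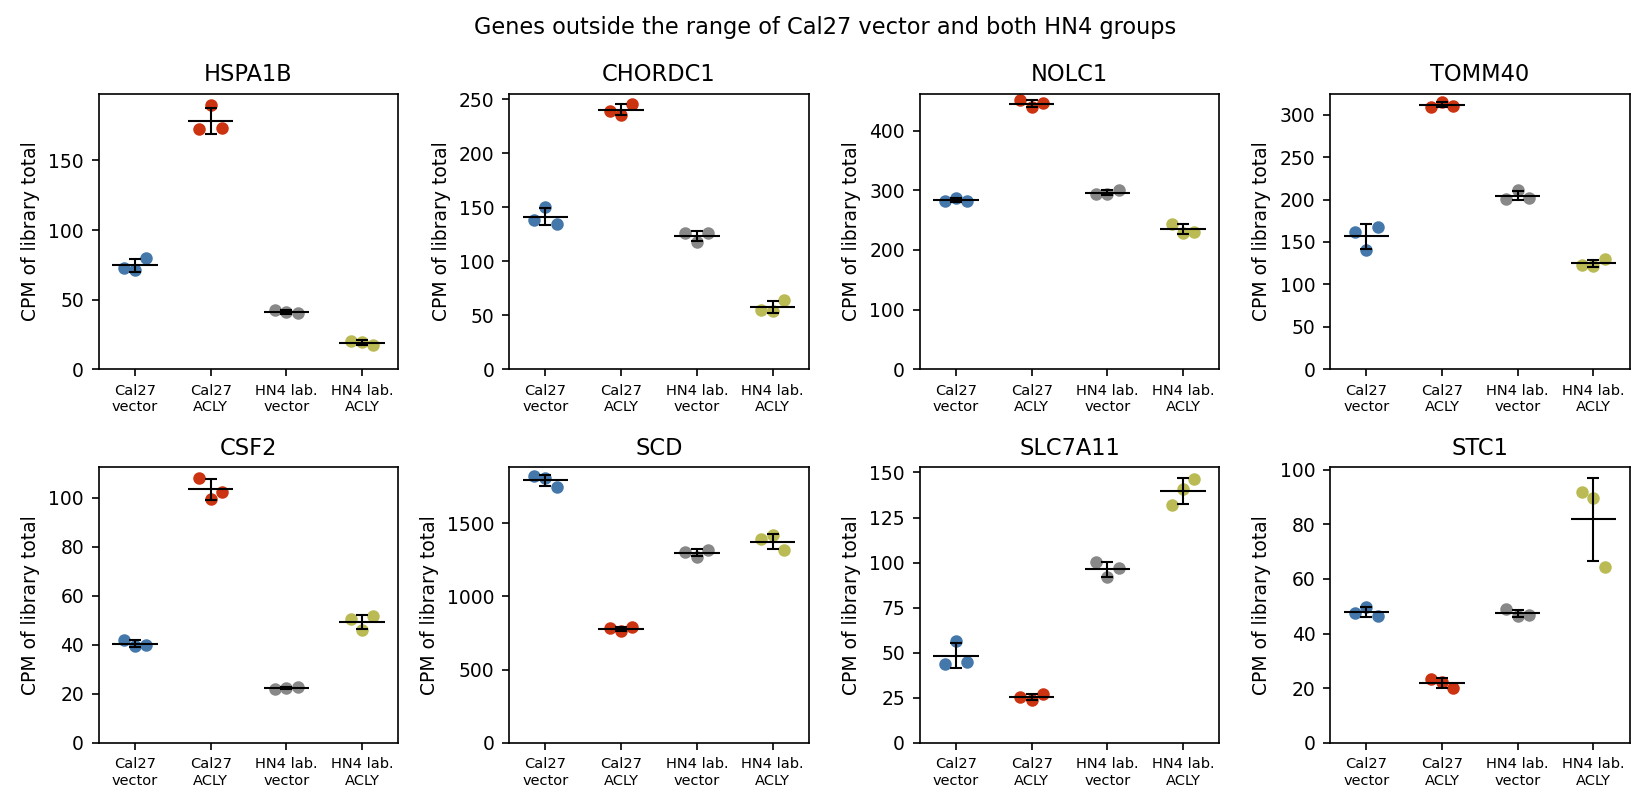
Level in CPM of library totals in each of 12 libraries for 8 genes outside the range, with the mean (line) and SD (bar) of each group. HSPA1B, CHORDC1, NOLC1, TOMM40 and CSF2 are above every library of the other 3 groups with the ACLY plasmid, and SCD, SLC7A11 and STC1 are below every one.

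A few genes of redox and amino acid stress were also found below the range. SLC7A11, the cystine importer that supplies glutathione, held 25.2, 23.7 and 26.8 CPM against 43.5, 56.3 and 44.9 CPM with vector and 91.7 to 146 CPM over the HN4 libraries (step -0.94, adjusted p = 6.82e-08). ATF4, a transcription factor that drives it, was at 246 CPM against 320 CPM with vector, and 319 and 509 CPM in HN4. HMOX1, which breaks down heme, was at 6.05 ± 0.81 CPM against 13.3 ± 1.22 CPM (a range call lost without Cal27 ACLY replicate 2), and FTH1, a ferritin chain, at 1419 CPM against 2272 CPM. Of 28 ATF4 stress genes 5 were higher and 18 lower than vector, beside 34.2% and 29% of all genes, and only ATF4 and SLC7A11 were below the range (7.14%, beside 1.65% of all genes; 2 to 11 over the other settings). Of 27 NRF2 and antioxidant genes 13 were higher and 12 lower, with SLC7A11, HMOX1 and FTH1 below (11.1%; 2 to 5) and PGD above. STC1, a secreted glycoprotein, was the furthest below among protein-coding genes with a mean of at least 2 CPM and no overlap of libraries. It held 23.2, 22.3 and 19.9 CPM against 47.6, 49.7 and 46.3 CPM with vector and 46.4 to 91.7 CPM over the HN4 libraries (step -1.12, adjusted p = 1.3e-08).

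Inflammatory genes went both ways. Of 28 NF-kB and TNF targets 11 were higher and 13 lower than vector, with a median of -0.01 on the log2 scale. Above the range were 3 (10.7%, beside 2.62% of all genes, and 2 to 3 over the other settings). Below it were 2 (7.14%, beside 1.65% of all genes, and 2 to 10 over the other settings). CSF2, the cytokine GM-CSF, held 108, 99.6 and 102 CPM against 42.0, 39.3 and 39.8 CPM with vector, and 22.0 to 22.6 and 46.0 to 51.6 CPM in the HN4 groups (step 1.07, adjusted p = 4.26e-11). TNF was at 49.7 ± 0.904 CPM against 30.3 ± 1.45 CPM, with 9.06 and 13.7 CPM in HN4, and was above the range, as was NFKBIA, an inhibitor of NF-kB. Below it were SOD2, the mitochondrial superoxide dismutase, at 434 CPM against 1013 CPM with vector and at least 582 CPM in every HN4 library, and PTGS2, the cyclooxygenase, at 12.9 CPM against 22.1 CPM. ADM, the peptide adrenomedullin, held 115, 115 and 114 CPM against 56.4, 56.2 and 57.7 CPM (step 1.01) and was the 1 of 29 glycolysis and hypoxia genes outside the range, in a list where 4 were higher and 22 lower than vector. Of 34 interferon-stimulated genes 9 were higher and 14 lower, with IFI6, IRF7, MX1 and BST2 above the range (11.8%) and OASL below (2.94%). Of 29 immediate early genes 9 were higher and 10 lower, with 10.3% above the range and 3.45% below. JUN, IER3 and DUSP5 were above, and EGR1 was below at 20.8, 25.1 and 20.2 CPM against 71.4 to 76.8 CPM with vector and at least 32.9 CPM in HN4.

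Other lists had few or no members outside. By edgeR, 0 of 26 p53 targets, 0 of 30 genes of squamous lineage and epithelium and 0 of 7 IL-8 receptors and chemokines were outside the range (2, 1 and 0 at an unadjusted 0.05), although 17, 10 and 5 were higher and 4, 19 and 2 lower than vector. The p53 target CDKN1A was at 273 CPM against 73.2 CPM with vector, and 252 and 495 CPM in HN4. Of 27 genes of small extracellular vesicle formation, 16 were higher and 5 lower, with CD81, SDC1 and VPS4A above the range (11.1%, beside 2.62% of all genes) and FLOT2 and SDCBP below (7.41%, beside 1.65%). With 6 groups as limits 1 was above and 0 below, and with the length and GC trend taken out 1 was above and 2 below. CD81, a vesicle tetraspanin, was at 233 CPM against 194 CPM with vector, and 193 and 197 CPM in HN4. Of 8 squamous epithelial markers, 8 were at 1 CPM or more in both Cal27 groups. Their summed level was 4180 to 4260 CPM with the plasmid, 7640 to 8230 CPM with vector and 1700 to 1840 CPM in HN4. Fibroblast markers summed to 24.7 to 26.4 CPM with the plasmid (3 of 12 at 0), 38.5 to 41.1 CPM with vector and 48.8 to 62.2 CPM in HN4. Leukocyte and endothelial markers summed to 14.9 to 17.4 CPM (3 of 12 at 0), 32.9 to 35.1 CPM and 9.24 to 13.7 CPM. Both sums were thus lower with the plasmid than with vector, the first below and the second between those of vector and HN4, and their part in the results was not tested. Fibroblast markers went both ways, 2 higher and 4 lower than vector of 6 tested. FAP rose from 0.056 to 10.1 CPM, beside 47.0 and 29.2 CPM in HN4, and COL1A1 fell from 19.9 to 6.55 CPM. Neural and melanocyte markers summed to 11.5 to 12.5 CPM with the plasmid, 12.3 to 12.7 CPM with vector and 13.9 to 18.1 CPM in HN4. Of the tested fibroblast, leukocyte and endothelial, and neural and melanocyte markers, 0 were outside the range by edgeR, also at an unadjusted 0.05.

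Library properties moved with the groups as well. Reads of mitochondrial genes were 3.16% to 3.27% of the counts in Cal27 ACLY, 4.53% to 5.01% in Cal27 vector, 5.05% to 5.17% in HN4 labelled vector and 2.15% to 6.04% in HN4 labelled ACLY. The lowest of these was replicate 3 of HN4 labelled ACLY, which stood apart from its group. Without it 1131 genes were outside the range. Left out of the totals, mitochondrial genes gave 812 genes outside, 420 above and 392 below. Transcript length moved too: the median was 5018 bases over protein-coding genes tested, 3877 bases for those above the range and 8366 bases for those below. GC content was 48.7%, 52.9% and 44.1%. With the length and GC trend taken out, the medians were 5262 and 5921 bases, and 8 heat shock, 29 nucleolar, 4 DNA replication, 3 mitochondrial ribosomal and 4 fatty acid synthesis genes were outside on the same side as before. The calls of SOD2, IFI6, IRF7, JUN, IER3, CDC45, ORC6, CD81, SDC1, PGD, KAT6B, RPLP2 and RPS16 were lost under that step. With 6 groups as limits those of VPS4A, FLOT2, FTH1, MCM5 and MX1 were lost, and those of JUN, ORC6, SDC1, PGD, KAT6B, RPLP2 and RPS16 were lost there as well. With 1 replicate left out, those of IFI6, ORC6, SDC1, PGD, KAT6B, RPLP2 and RPS16 could be lost too. The part of RNA quality in these results was not tested.

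HN6 with the plasmid held 2155 to 2272 CPM of ACLY, against 257 to 262 CPM with vector. HN6 shares no library with the Cal27 comparison. Of the 486 genes above the range in Cal27, 366 (75.3%) were lower and 41 (8.44%) higher in HN6 with the plasmid, beside 24.9% and 26.8% of all genes. Of the 307 below, 179 (58.3%) were higher and 42 (13.7%) lower. The response differed between Cal27 and HN6 for 11488 of 18556 genes (61.9%, edgeR interaction). NOLC1 fell in HN6 from 426, 413 and 399 CPM to 164, 170 and 167 CPM, and the Cal27 response minus the HN6 response was 2.10 (adjusted p = 5.17e-24). SCD rose in HN6 from 1061, 997 and 973 CPM to 1857, 1806 and 1792 CPM. In the lists, 17 of 23 heat shock, 57 of 65 nucleolar and 34 of 34 DNA replication genes were lower in HN6 with the plasmid. Of the 42 histones, 25 were higher in HN6 and 0 lower. SLC7A11, CSF2, TNF and ADM also changed in the same direction in HN6, by -0.59, 0.68, 0.51 and 0.50 on the log2 scale.

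**Figure D5:**
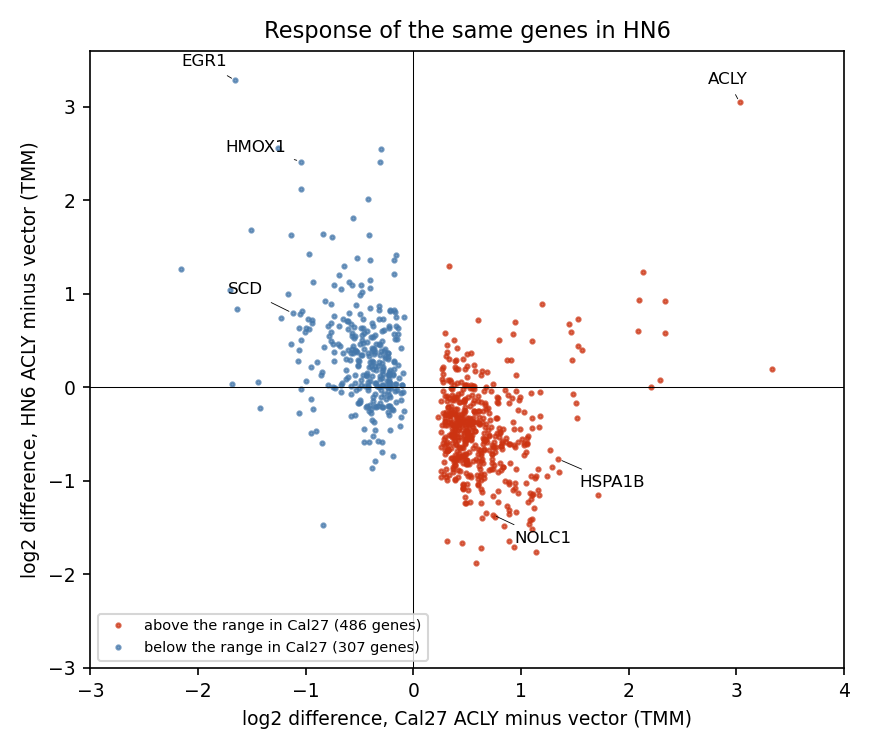
The log2 difference between ACLY plasmid and vector in Cal27 (x) and in HN6 (y) for the 793 genes outside the range in Cal27, with TMM scaling. Most points above the range in Cal27 lie below 0 in HN6 and most points below it lie above 0, while ACLY is near 3 in both; 1 gene (MAGEA2) lies beyond the axes.

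Cal27 given IL-8 at 100 ng per ml for 24 h, in libraries apart from these, also held HN4-only transcripts, at 0.274 ± 0.0335 of the HN4 level. ACLY itself was high there, at 1249, 1279 and 994 CPM, against 240 to 249 CPM in untreated Cal27. In HN4 it was at 1309 to 1337 CPM with IL-8 and 376 to 382 CPM untreated. HN6 did not share this, with 220 to 224 CPM with IL-8 and 263 to 269 CPM untreated. Set against untreated Cal27, untreated HN4 and HN4 with IL-8 by the same test, 10 genes were above the range (0.0544% of 18398) and 0 below by edgeR, and 688 and 341 at an unadjusted 0.05. Without replicate 3 of Cal27 IL-8 there were 143 above and 40 below. The 10 were AHSA1, HSPA1A, HSPA1B, E2F4, SNRPA1, RPF2, ADM, TNF, HIST2H2BC and HIST1H2BH. All 10 were also above the range with the ACLY plasmid, which is 100% of the IL-8 list and 2.06% of the ACLY list. Without replicate 3 of Cal27 IL-8, 130 of the 143 (90.9%, and 26.7% of the ACLY list) and 30 of the 40 (75%, and 9.77%) were shared, and 0 were on opposite sides. Mitochondrial genes held 1.06% of the counts of that replicate, beside 3.37% and 3.59% in replicates 1 and 2. The overlap was not counted without replicate 1 or 2, where 45 and 98 genes were outside the range. Of all genes, 2.62% were above and 1.65% below the range with the plasmid. Cal27 with IL-8 and Cal27 with the plasmid both held high ACLY and HN4-only transcripts, and the part of these in the overlap was not tested.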

How the data were processed

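Gene counts of poly-A RNA were analysed for 18 libraries of the plasmid experiment, with the 18 of the IL-8 experiment where named. The deposited values are raw whole-number counts per gene for 58735 genes, and the submitters' processing notes name hg38 with HISAT2 2.0.5, CASAVA, DESeq2 and featureCounts 1.5.0-p3. How strand and multiply matching reads were handled is not given in the sources used here, and overlapping, antisense and near-identical genes are uncertain. All identifiers match GENCODE 29, whose names were used, with coordinates and gene lengths from the table and GC content from the longest transcript. Totals of the 36 libraries were 16570601 to 20232735 counts.

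Groups came from the labels. Counts of 18 libraries were fitted with edgeR 4.0.16 (R 4.3.3, filterByExpr at a minimum count of 10 and total of 15, robust quasi-likelihood, 6 group means, 12 residual degrees of freedom). Cal27 ACLY against vector, HN6 and their interaction used TMM factors, and the range test used library totals, on which a mixture is a weighted mean. Two-sided p-values were adjusted by Benjamini-Hochberg at 0.05, and the tests were checked on simulated counts.

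Named genes were ACLY, the 12 furthest above and 12 furthest below the range among protein-coding genes with a mean of at least 2 CPM and no overlap of libraries, the 5 largest rises and falls inside it, and up to 4 members of each list. Other genes named were chosen after their values were seen: list members named in a group or set beside it (MYC, FASN, HSPH1, HSF1, CDKN1A, WDR46, RRP9) and the 10 IL-8 genes. The comparison, the 28 lists and the tests were chosen with earlier results of these data known, and 8 further lists after values were seen. RefSeq promoters (GRCh38.p14) were matched by symbol. Alternatives were other scalings (TMM, upper quartile, library totals), filters, DESeq2 1.42.0, the 6 Cal27 libraries alone, all 36 libraries, the replicate block, and each replicate left out. A length and GC offset and totals without mitochondrial genes were added after seeing the data. No replicate pair agreed within sampling noise, and none was merged. Y-linked genes were not named.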

Additional observations from a re-analysis of the deposited data

Results flagged for a closer look

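The response to the ACLY plasmid was compared between Cal27 and HN6 by an edgeR interaction for ACLY, 7 of the genes furthest above the range (MAGEA2, with 0 counts in Cal27 vector, was left out) and the 8 furthest below. For 13 of these 16 genes the responses differed, with values as log2 response in Cal27 minus HN6 and p adjusted over 18556 genes. Among genes above the range the difference was 3.14 for HIST1H2BH (adjusted p = 1.35e-12), 1.42 for HIST2H2BE (1.23e-08), 2.11 for HSPA1B (4.09e-20), 2.19 for SPRR1B, a cornified envelope protein (3.22e-07), 0.76 for CSF2 (7.99e-07), 2.11 for HSPA1A (2.57e-13) and 0.60 for ADM (4.63e-06). HSPA1B, HSPA1A and SPRR1B were lower in HN6 with the plasmid, while CSF2, ADM and HIST2H2BE were higher there too, by less. Among genes below the range it was -3.17 for STC1 (8.45e-15), -1.74 for HEG1, an endothelial and epithelial membrane protein (2.4e-17), -0.79 for CYP24A1, the vitamin D hydroxylase (0.0199), -2.39 for TLR6, a receptor of bacterial lipopeptides (3.68e-14) and -0.75 for KIF21B, a kinesin (0.00856). STC1, HEG1 and TLR6 were higher in HN6 with the plasmid. SPOCK1, an extracellular proteoglycan, had a difference of 0.63 (adjusted p = 0.0198) in the other direction, since it fell by more in HN6.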

How the results depend on the processing

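No named gene outside the range was called on the other side of it under the alternatives, although calls could be lost. No other named gene refitted changed the sign of its difference from vector. The balance of calls did change. More genes were lower than higher against vector on library totals (5515 higher, 6212 lower), with upper-quartile scaling (4995 and 6861) and with DESeq2 (5724 and 5843). The same held with the length and GC offset (4786 and 7318) and, by 1 gene, at 5 CPM (4204 and 4205). Outside the range more were below than above with the offset (302 above, 409 below, and 300 and 388 with the replicate block as well). The ACLY difference and the calls of ACLY, HSPA1A, HSPA1B, CHORDC1, NOLC1, TOMM40, CSF2, ADM, SCD, ACACA and SLC7A11 held in all alternatives. Of 97 named genes outside the range, 47 kept the call in every alternative. Against vector 4264 genes were called at least 2-fold. Outside the range 93 genes were called at least 1.5-fold beyond the nearest group, 284 with all 36 libraries and 6 groups as limits, and 2399 with HN4 labelled ACLY and Cal27 vector as the only limits. Leaving out 1 replicate gave 514 (without Cal27 ACLY replicate 2) to 1131 (without HN4 labelled ACLY replicate 3), and also 529 without Cal27 ACLY replicate 1, with 2 libraries left in a group assumed to vary like the rest. TMM scaling gave 889 (621 above, 268 below), upper-quartile scaling 787 (435 and 352) and DESeq2 873. Genes above the range and higher in HN6 numbered 16 with the length and GC offset. The share of the HN4 level was 0.495 with limits of 10 and 1 CPM, 0.54 with 50 and 0.3 CPM, 0.505 from HN4 labelled vector alone and 0.548 from HN4 labelled ACLY alone. The IL-8 count outside the range went from 5 to 183 as 1 replicate was left out, with 5 without untreated Cal27 replicate 2 or 3, and 45, 98 and 183 without Cal27 IL-8 replicate 1, 2 or 3, so it rests on single libraries. For each change beyond these constructions the cause was not tested. Deviations of same-numbered libraries of the 2 Cal27 groups had correlations of 0.05, -0.15 and -0.22, and those of other pairs ran from -0.133 to 0.262. With 3 libraries a group the deviations are tied to each other, so these values cannot show whether same-numbered libraries were prepared together. With the replicate block 11630 genes were called against vector and 784 outside the range (484 above, 300 below). Depth limits what can be said of genes near the floor of 0.148 to 0.181 CPM.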
